A study of Mus musculus with 12 samples.

Results

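The hearts of diabetic trained mice were set against the hearts of healthy sedentary mice, a comparison in which streptozotocin diabetes and treadmill running differ together, and the question was which differences from healthy sedentary hearts remain in diabetic hearts after training. It rests on 6 of the 12 arrays of the study, chosen by their titles: 3 diabetic trained and 3 healthy sedentary arrays, 1 of each from weeks 1, 3 and 5. All mice were males of the NMRI stock, 10 to 15 weeks old. Diabetic trained mice had received a single injection of 180 mg/kg streptozotocin, a toxin of the insulin-producing beta cells used as a model of type 1 diabetes, and then ran on a treadmill for 1 h a day on 5 days a week, at 21 m/min and an incline of 2.5°. Healthy sedentary mice had received the buffer and did not run. Hearts of diabetic sedentary mice (streptozotocin, no running) and of healthy trained mice (buffer and running), with 3 arrays each at the same weeks, entered the fit and serve in further comparisons. Hearts were taken 24 h after the last run, at the same time in the sedentary mice. Each array carried the pooled RNA of 5 mice, so the spread between mice is not seen, and the 3 arrays of a group differ in week: p-values measure the scatter of these pools about the effects of condition and week.

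A healthy heart burns mainly fatty acids and takes up glucose under the control of insulin. When insulin is lacking, pyruvate dehydrogenase kinases shut off the entry of pyruvate into the citric acid cycle, and fatty acids acting on the nuclear receptor PPARalpha turn up genes of their own use. The rodent ventricle is also known to shift in diabetes from the fast alpha-myosin heavy chain, made from Myh6, towards the slow beta form, made from Myh7, and uncontrolled diabetes raises circulating glucocorticoids. Endurance running calls on the same fuel pathways.

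The arrays measured 12422 gene probe sets, of which 7453 were bright enough to be tested, and 5657 named genes had at least 1 tested probe set. Signals are on the linear MAS5 scale, on which the median probe set read 16.55 to 20.4 on 11 arrays, while the array of diabetic trained hearts at week 3 had a median of 25.4. It was also the least like the others (mean correlation of log2 signals with the other 11 arrays 0.853, against 0.940 to 0.953). Its own scan record states that new cRNA was labelled from the same RNA after the first hybridisation mix gave high background, and it had a run day, chip lot and hybridisation cocktail of its own. The week-matched diabetic trained and healthy sedentary arrays differed by 2-fold or more at 1157 probe sets in week 1, at 3479 in week 3 and at 795 in week 5. The main results are therefore given with and without this array or the week 3 pair. Weeks 1 and 3 otherwise shared a chip lot and cocktail and week 5 had its own, which the week term of the fit absorbs, whereas each condition ran on its own fluidics module, and module and condition cannot be told apart. The 3′ control probe set for 18S ribosomal RNA read 88.4, 530.5 and 2084.3 on the diabetic trained arrays of weeks 1, 3 and 5. On the healthy sedentary arrays it read 322.0, 1140.9 and 3809.3. The ratio of 3′ to 5′ signal for beta-actin was 1.956, 1.803 and 2.519, against 1.704, 1.991 and 2.112. The part of RNA quality in the differences was not tested. The heart label held: Myh6, a gene of cardiac muscle, read 4473.1, 3557.8 and 3076.9 on the diabetic trained arrays of weeks 1, 3 and 5, against 4023.5, 5017.2 and 3978.5 on the healthy sedentary arrays.

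In diabetic trained hearts 4 differences passed the test. Myh7, the beta-myosin heavy chain, Pdk4, a kinase that inactivates pyruvate dehydrogenase, and Fkbp5, a glucocorticoid-induced co-chaperone of the glucocorticoid receptor, rose 2.50-fold, 2.76-fold and 2.95-fold, and Camk2b, the beta subunit of calcium/calmodulin-dependent kinase II, fell 4.68-fold against healthy sedentary hearts. Together they are 4 of 7453 probe sets (0.0537%) at an adjusted p under 0.05 in limma's moderated test with Benjamini-Hochberg adjustment, 3 higher and 1 lower. At an unadjusted p under 0.05 there were 252 higher and 527 lower probe sets, 10.5% of those tested. Without the diabetic trained array of week 3 the test called 3 probe sets (0.0403%), 2 higher and 1 lower (Myh7, Ccn2 and Camk2b), and without the week 3 pair it called 4 (Myh7, Ccn2, Pdk4 and Camk2b). The calls rest on few arrays. In limma 0 probe sets were called when any healthy sedentary array, the diabetic trained array of week 5 or the healthy trained array of week 1 or 3 was left out, 2 were called without the diabetic sedentary array of week 1 or the healthy trained array of week 5, and 20 were called without the diabetic trained array of week 1. Over 28 alternatives Myh7 passed in 15, Pdk4 in 10 and Fkbp5 in 7, and over 27 Camk2b passed in 15, each with its direction kept in all of them.

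Myh7 read 3070.6, 3107.8 and 2539.5 in diabetic trained hearts at 1, 3 and 5 weeks, against 1106.1, 1503.9 and 934.9 in healthy sedentary hearts. All 3 diabetic trained values lay above all 3 healthy sedentary ones, and the difference was 1.32 on the log2 scale (SE 0.162, adjusted p = 0.0175 in limma), or 1.41 without the week 3 array (adjusted p = 0.00389). The probe set belongs to a type that shares probes within a gene family, so part of its signal may come from other myosin genes. A dimmer Myh7 probe set of the same type read 44.7, 101.7 and 38.1 in diabetic trained hearts against 21.9, 22.3 and 13.8, a difference of 1.56 that did not pass (adjusted p = 0.259 in limma). For Myh6, the alpha form, the difference was -0.24 (SE 0.163, adjusted p = 0.631 in limma) and the groups overlapped.

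Pdk4 read 1101.5, 1169.4 and 1831.7 in diabetic trained hearts, against 444.7, 552.7 and 458.8 in healthy sedentary hearts, with no overlap. The log2 difference was 1.46 (SE 0.211, adjusted p = 0.0451 in limma). Without the week 3 array it was 2.84-fold higher and did not pass (adjusted p = 0.0543). The widest gap between the paired arrays was in week 5. Fkbp5 read 104.5, 85.9 and 111.7 in diabetic trained hearts, against 44.6, 24.5 and 35.8 in healthy sedentary hearts, again without overlap. Its difference was 1.56 (SE 0.232, adjusted p = 0.046 in limma), and 1.59 with an adjusted p of 0.06 without the week 3 array.

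Camk2b read 7.7, 12.2 and 5.7 in diabetic trained hearts, against 39.3, 50.4 and 27.7 in healthy sedentary hearts. The groups did not overlap and the log2 difference was -2.23 (SE 0.279, adjusted p = 0.0175 in limma), or -2.39 without the week 3 array (adjusted p = 0.00433). All 3 diabetic trained signals lay below 13.8, the highest signal that any of 19 control probe sets for bacterial and yeast transcripts gave on any array, so the size of the fold depends on signals in the range of background.

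Ccn2, a secreted matricellular protein induced by TGF-beta and known as connective tissue growth factor, read 368.4, 319.3 and 412.0 in diabetic trained hearts, against 128.7, 202.4 and 162.8 in healthy sedentary hearts. The groups did not overlap, and the difference was 1.17 with all arrays (SE 0.198, adjusted p = 0.0794 in limma) and 1.45 without the week 3 array (adjusted p = 0.00389). In week 3 the pair differed by 0.66, against 1.52 in week 1 and 1.34 in week 5.

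**Figure D1:**
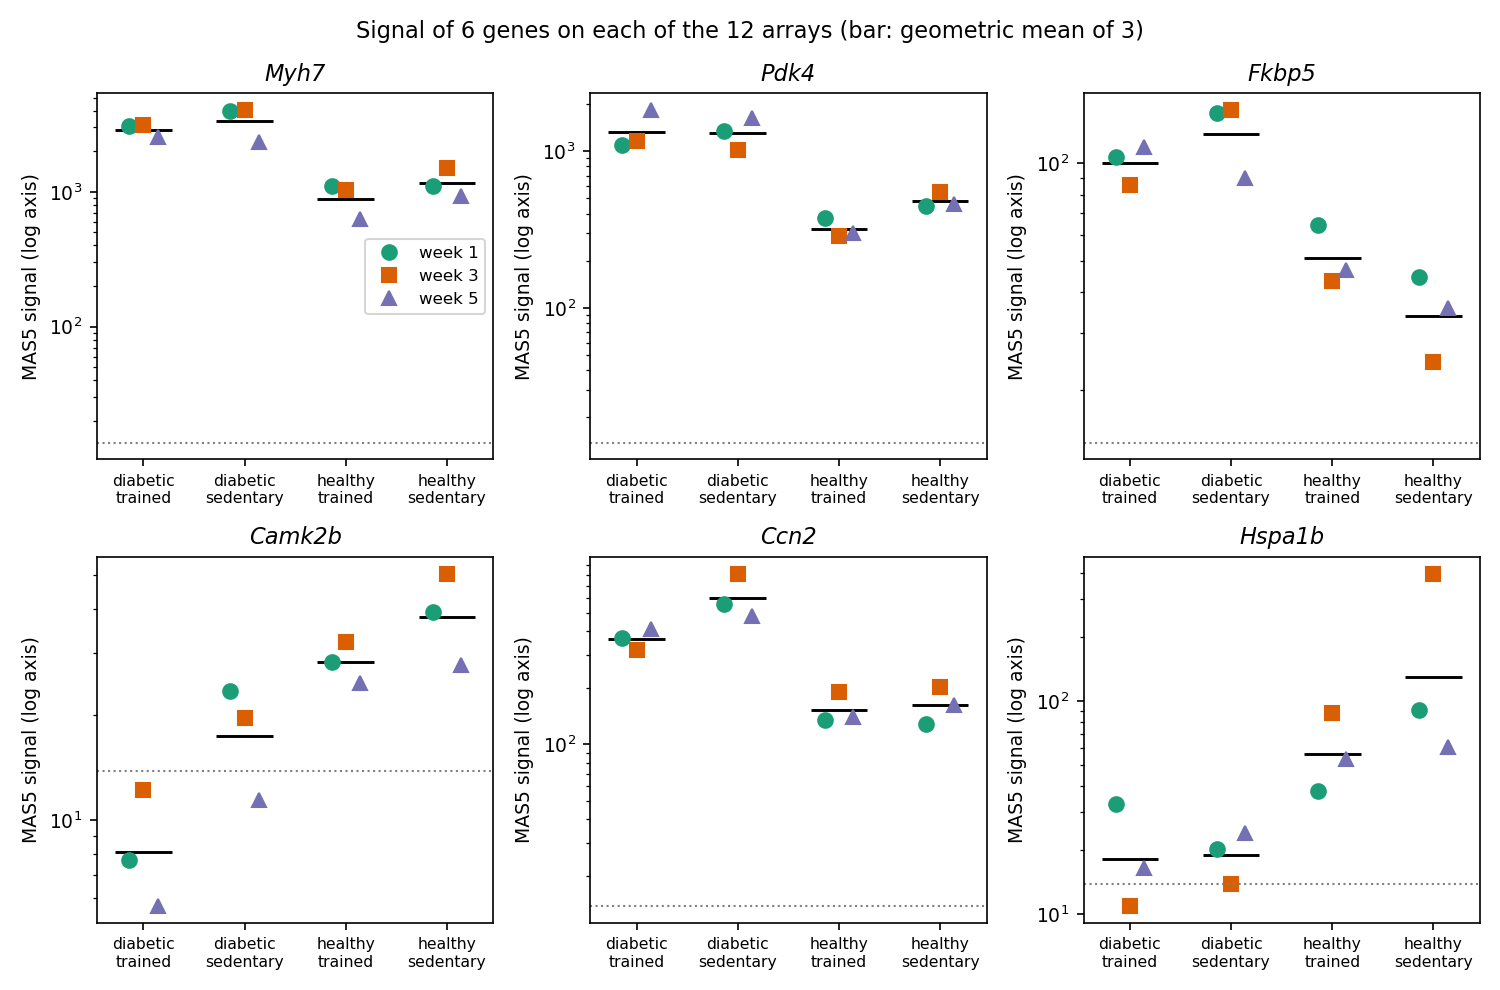
MAS5 signal (log axis) of 6 genes on all 12 arrays, by group and week; black bars are geometric means of 3 arrays and the dotted line is the highest signal of the absent-transcript controls, 13.8. Myh7, Pdk4, Fkbp5 and Ccn2 were higher and Camk2b and Hspa1b lower on each of the 3 diabetic trained arrays than on any healthy sedentary array.

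The other 6 arrays hold hearts that had only diabetes or only training. Training alone was not tested against healthy sedentary hearts. In diabetic sedentary hearts 4 probe sets were called against healthy sedentary hearts (0.0537% of those tested), all higher: Ccn2, Fkbp5, Myh7 and Pdk4. This comparison shares the healthy sedentary arrays with the one above, so the values are set side by side only. Myh7 read 3962.2, 4031.7 and 2348.4 in diabetic sedentary hearts, and its difference from healthy sedentary hearts was 1.53, beside 1.32 after training. Pdk4 read 1342.9, 1016.7 and 1636.8, with differences of 1.44 and, after training, 1.46. Fkbp5 read 142.3, 145.5 and 89.7, with differences of 1.86 and 1.56. For Ccn2, at 555.5, 810.8 and 479.6 in diabetic sedentary hearts, the difference was 1.89, beside 1.17 after training.

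Trained against sedentary within diabetes, no probe set passed (0 of 7453, 0.0%; 149 higher and 384 lower at an unadjusted p under 0.05 in limma), nor without the week 3 array (0.0%; 117 higher and 262 lower). The intervals bound that difference between the groups of arrays, in which training and fluidics module cannot be told apart. For Pdk4 the diabetic trained hearts differed from diabetic sedentary hearts by 0.03 on the log2 scale (95% interval -0.43 to 0.49), for Myh7 by -0.21 (-0.56 to 0.14) and for Fkbp5 by -0.30 (-0.80 to 0.21). Each of these intervals leaves room for a shift smaller than the difference from healthy sedentary hearts. For Ccn2 the value was -0.72 (-1.15 to -0.29, adjusted p = 0.665 in limma), and all 3 diabetic trained arrays read lower than all 3 diabetic sedentary arrays. Camk2b, which was not called in diabetic sedentary hearts (difference from healthy sedentary -1.13, adjusted p = 0.207 in limma; signals 23.3, 19.6 and 11.4), gave -1.09 in diabetic trained against diabetic sedentary hearts (-1.71 to -0.48, adjusted p = 0.665).

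Diabetic trained hearts were also compared with healthy trained hearts, which had run in the same way but were not diabetic. Pdk4 (2.06, adjusted p = 0.00211 in limma) and Myh7 (1.70, adjusted p = 0.00197) were the 2 probe sets called (0.0268%), both higher. Healthy trained hearts read 373.6, 288.6 and 299.4 for Pdk4 and 1099.6, 1026.2 and 624.3 for Myh7. For Fkbp5, at 64.5, 43.5 and 47.0 in healthy trained hearts, the difference was 0.98 and did not pass (adjusted p = 0.268). Ccn2 differed by 1.25 and Camk2b by -1.79, each with an adjusted p of 0.0811 in limma. Without the week 3 array 5 probe sets were called (0.0671%): Myh7, Pdk4, Ccn2 and Fbp2 higher and Camk2b lower. The interaction, the diabetes effect in trained minus that in sedentary hearts, was called for no probe set with or without that array (0.0% of 7453; 321 with all arrays and 346 without that array at an unadjusted p under 0.05 in limma), so no gene was shown to differ in its diabetes effect.

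With the week 3 array of the diabetic trained hearts left out of the fit, diabetic sedentary against healthy sedentary hearts, with the same 6 arrays of their own, gave 60 called probe sets (0.805%), 44 higher and 16 lower, in place of 4. The trained hearts were read at these probe sets in diabetic trained against healthy trained hearts, whose groups share no array with it. The week terms of this fit also rest on the sedentary arrays, which therefore enter the trained difference indirectly. Of the 44 higher probe sets, 41 were above 0 there, 30 had an unadjusted p under 0.05 and 4 were called, with a median difference of 0.65 beside 1.06 in the sedentary hearts. Of the 16 lower probe sets, 15 were below 0, 10 had an unadjusted p under 0.05 and 0 were called in limma, with medians of -0.60 and -0.94. Over all tested probe sets, 45.2% were above 0 and 54.8% below 0 in diabetic trained against healthy trained hearts, and 4.16% were higher and 4.66% lower at an unadjusted p under 0.05. The 60 probe sets were called with the same fitted residual spread that these p-values use, which favours low p-values at them although the groups share no array. They were also chosen by their diabetic sedentary difference, which favours a large value there. The gap between the medians therefore does not measure an effect of training.

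The largest of these diabetic sedentary differences are plotted with the trained hearts' own values. Mt2, a metallothionein that binds zinc and copper, read 1014.3, 501.9 and 688.6 in diabetic trained hearts, against 204.3, 262.2 and 364.1 in healthy sedentary hearts, without overlap (difference 1.39, adjusted p = 0.159 in limma). Its diabetic sedentary difference was 1.71. Map3k6, a stress-activated kinase, gave 2.01 in trained and 3.08 in sedentary diabetic hearts, but its healthy sedentary signals of 4.6, 7.6 and 4.3 lay in the background range. Xdh, the xanthine dehydrogenase that makes uric acid, gave 1.00 and 1.77, and Cyp1b1, a cytochrome P450, 0.96 and 1.62. Among the lower ones, Eif4ebp2, a repressor of cap-dependent translation, gave -1.09 and -1.31 (a brighter probe set -0.22 and -0.09), and Lpin1, which makes diacylglycerol and co-activates fatty acid genes, -0.70 and -0.69. Tmsb10, an actin-binding peptide, gave -0.54 and -0.80.

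Several plotted genes had a trained value well inside the sedentary one. Among the higher ones these include Map3k6, Xdh, Cyp1b1 and Ccn2, given above, and among the lower ones Lppos and Col3a1. The plotted genes were chosen by their sedentary difference, which favours such a gap without any effect of training. Lppos, a transcript antisense to Lpp, read 32.8, 42.6 and 31.7 in diabetic trained hearts, against 37.9, 28.8 and 50.1 in healthy sedentary hearts (difference -0.10, adjusted p = 0.911 in limma), whereas diabetic sedentary hearts read 19.5, 15.8 and 21.1. Diabetic trained minus diabetic sedentary hearts gave 0.92 (95% interval 0.36 to 1.49), which did not pass (adjusted p = 0.665 in limma). A dim Col3a1 probe set for the fibrillar collagen III chain gave -0.74 in trained and -1.67 in sedentary diabetic hearts. The brighter Col3a1 probe set gave -0.56 and -1.07, and neither passed in either comparison with all arrays.

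**Figure D2:**
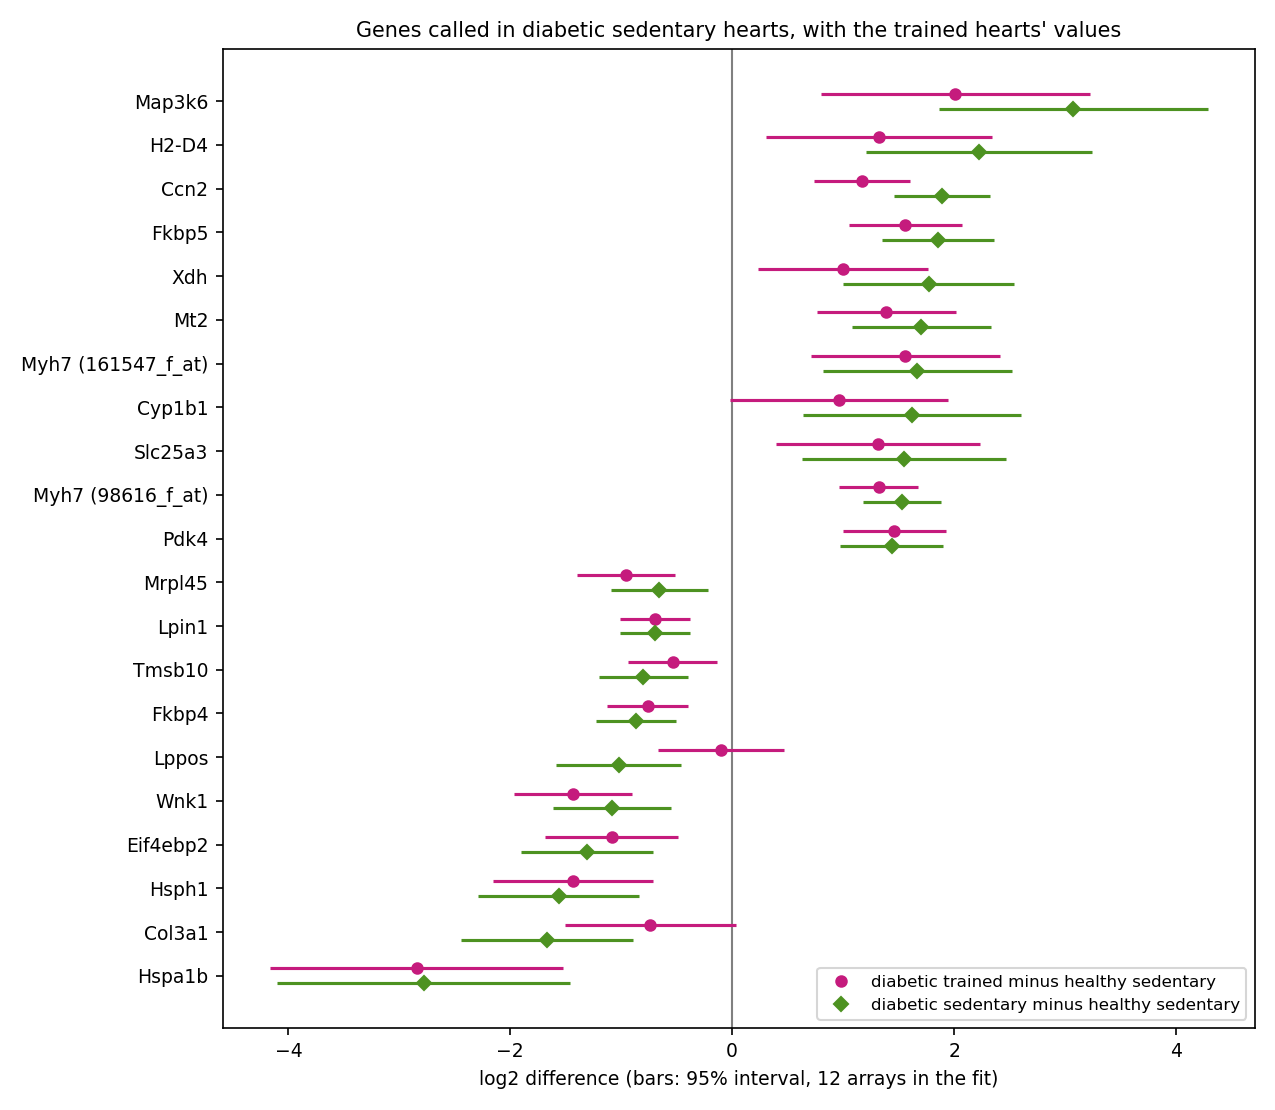
Log2 differences from healthy sedentary hearts for the genes called in diabetic sedentary hearts with all arrays or without the diabetic trained week 3 array: diabetic trained (circles) and diabetic sedentary (diamonds), with 95% intervals from the 12-array fit. The 2 comparisons share the healthy sedentary arrays. Pdk4 and Hspa1b gave nearly the same value in both, while the trained values of Map3k6, Xdh, Cyp1b1, Ccn2, Lppos and Col3a1, among others, lay closer to 0.

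Beyond the 4 calls, the genes with the smallest p and the same sign in all 3 pairs are given as values. All 3 probe sets of Ptgds, the lipocalin-type prostaglandin D synthase, read higher on each diabetic trained array than on any healthy sedentary array: the brightest read 3440.9, 1423.4 and 1905.7, against 565.1, 988.1 and 749.8 in healthy sedentary hearts (difference 1.49, adjusted p = 0.217 in limma). Healthy trained hearts read 2497.7, 1091.3 and 778.9 at it, so the week 1 value was also high in hearts that had training without diabetes. Acot1, a cytosolic acyl-CoA thioesterase, gave 1.04, Fbp2, the muscle fructose-bisphosphatase, 1.08, and Timp3, an inhibitor of matrix metalloproteases, 0.62. Rps19, a small-subunit ribosomal protein, gave 0.70 and Wdr92 0.87. Their adjusted p values lay between 0.174 and 0.216. None of these genes overlapped between the groups, which the choice by small p and common sign favours. Of all tested probe sets 2.5% were higher without overlap. Without the week 3 array Lcn2, an iron-binding lipocalin, gave 1.76 (1.39 with all arrays), its signals being 30.6, 13.9 and 31.1 in diabetic trained hearts against 11.8, 9.9 and 6.3. All 3 healthy sedentary signals lay under 13.8, so these sizes rest on signals in the range of background. A second Lcn2 probe set gave -0.02 without that array.

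On the lower side Cdh13, the receptor for adiponectin on vessel and muscle cells, read 32.1, 28.3 and 76.4 in diabetic trained hearts, against 64.9, 89.8 and 148.8 in healthy sedentary hearts. Each pair differed in the same direction although the ranges overlapped (difference -1.21, adjusted p = 0.0706 in limma). Wnk1, a kinase that regulates chloride transport, gave -1.43 at one probe set (adjusted p = 0.0794), but -0.72 and -0.36 at the others. Src, a membrane-bound tyrosine kinase, gave -1.83 and Fosl2, an AP-1 subunit, -1.86, with diabetic trained signals of at most 8.7 and 7.9. Pacsin1, a membrane-bending endocytic adaptor, gave -1.56, Hspg2, the basement membrane proteoglycan perlecan, -1.01, and Chpf, which polymerises chondroitin, -1.01. Kcnk3, the TASK-1 potassium channel, gave -0.98, Scmh1, a Polycomb protein, -0.90, Col4a2, a basement membrane collagen chain, -0.83, and Tmx2, a thioredoxin-related membrane protein, -0.79. The adjusted p of these 9 genes was 0.159. Cxcl12, a chemokine of endothelial and stromal cells, gave -0.79 (-0.88 without the week 3 array), but -0.44 and 0.07 at its other probe sets. Some genes were named from the fit without the week 3 array. Ift46, a ciliary transport protein, gave -1.79 with all arrays and -2.63 without that array (-0.10 and -0.07 at a second probe set), Top3a, a topoisomerase, -0.59 and -1.08, and Smarcd1, a chromatin remodeller subunit, -0.62 and -1.68. Smarcd1 read 116.1 on the week 3 array, against 8.5 and 19.3 on the other diabetic trained arrays.

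**Figure D3:**
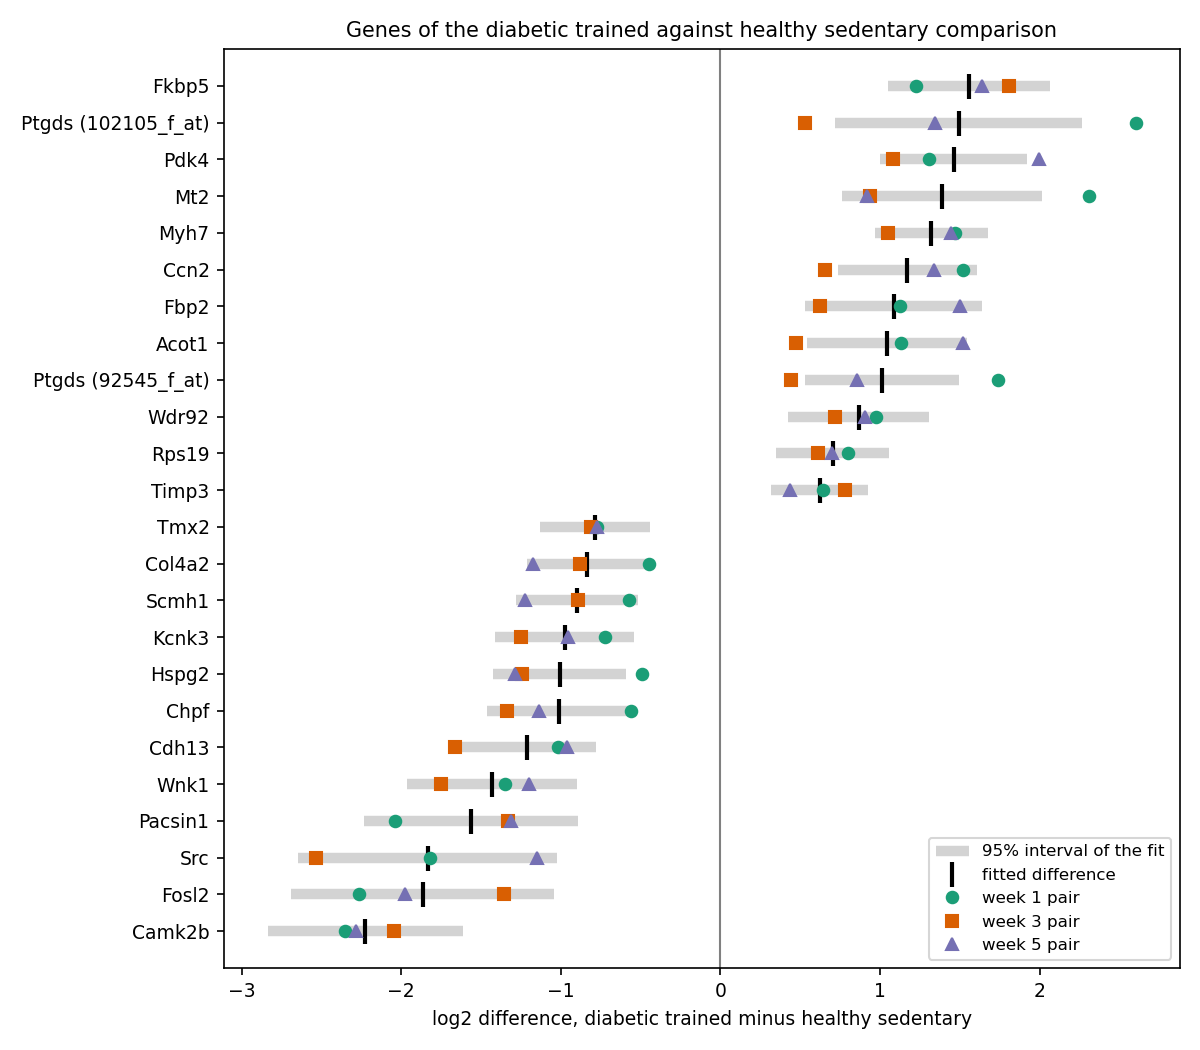
Log2 difference, diabetic trained minus healthy sedentary, of the 12 higher and 12 lower probe sets named for the comparison: colored points are the week 1, 3 and 5 pairs, ticks the fitted difference and grey bars its 95% interval (12-array fit). All 3 pairs share a sign at each probe set by the choice of the genes, and Fkbp5, Pdk4, Myh7 and Camk2b are the 4 that passed the test.

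Gene lists were described by their counts and medians beside those of all 5657 named genes, whose median difference was -0.04, of which 142 (2.51%) were higher without overlap and 256 (4.53%) lower. Of 14 pyruvate dehydrogenase kinases and PPARalpha-responsive genes tested, 9 were above 0 and 1 passed (Pdk4). Without overlap, 3 were higher (Pdk4, Acot1 and Ucp3) and none was lower. The median was 0.18 (0.19 without the week 3 array). In diabetic sedentary hearts the list's median was 0.445, and for trained against sedentary diabetic hearts it was -0.31. Against healthy trained hearts it was 0.20 in diabetic trained hearts. Ucp3, a mitochondrial carrier of muscle, read 37.3, 32.1 and 48.7 in diabetic trained hearts, against 22.3, 26.8 and 28.7 in healthy sedentary hearts. Hsd17b11, a lipid droplet dehydrogenase, gave 0.63 (1.05 in diabetic sedentary hearts). Among 20 genes of fatty acid uptake and beta-oxidation the median was 0.07 and 13 were above 0, or 0.17 and 16 without the week 3 array, and none passed. Cd36, the fatty acid translocase, gave 0.74, its signals being 177.7, 163.8 and 364.8 against 147.7, 117.6 and 132.4. Decr1, which reduces unsaturated acyl-CoA, also gave 0.74, and Acadl, the long-chain acyl-CoA dehydrogenase, 0.45, whereas Cpt2, the inner carnitine palmitoyltransferase, gave -0.41.

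Fatty acid synthesis lay on the other side. Its 12 tested genes had a median of -0.27, with 4 lower without overlap and 1 higher, and none passed. The week medians were -0.37, -0.27 and -0.00 for weeks 1, 3 and 5. Scd1, the stearoyl-CoA desaturase, read 63.0, 72.7 and 169.4 in diabetic trained hearts, against 242.8, 244.7 and 139.4 in healthy sedentary hearts: it was low in weeks 1 and 3 and not in week 5. Fasn, the fatty acid synthase, gave -0.45 without overlap, and Gpam, the first enzyme of glycerolipid synthesis, 0.32. Of the ketone and acetate genes, Acss1, the mitochondrial acetyl-CoA synthetase, gave 0.44 and Oxct1, the ketone-activating transferase, -0.42.

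Glucose genes had a median of -0.20 over 25 members, 4 lower and 1 higher without overlap, with none passing. The week medians were 0.02, -0.54 and -0.23 for weeks 1, 3 and 5, and without the week 3 array the median was -0.10. Slc2a4, the insulin-responsive glucose transporter GLUT4, read 347.8, 195.8 and 344.5 in diabetic trained hearts, against 447.4, 384.7 and 473.8 in healthy sedentary hearts (difference -0.60, adjusted p = 0.339 in limma). Pkm, pyruvate kinase, gave -0.72 (-0.36 at a second probe set) and Pygm, glycogen phosphorylase, -0.68. Of the citric acid cycle's 18 genes, 3 were above 0 and the median was -0.16, or 7 and -0.07 without the week 3 array; Ogdh, of the oxoglutarate dehydrogenase complex, gave -0.64 and -0.48. The respiratory chain's 60 genes had a median of -0.12 with all arrays and 0.03 without the week 3 array, their week 3 median being -0.49. Mitochondrial ribosome and import genes (48, median -0.13 and -0.01), the proteasome (34, -0.12 and 0.02) and branched-chain amino acid breakdown (12, -0.18 and -0.14) also had medians nearer 0 when that array was left out.

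Most glucocorticoid and FoxO response genes had values above 0. Of 24 tested, 20 were above 0, 1 passed (Fkbp5), 4 were higher without overlap and none lower, and the median was 0.34, and 0.57 without the week 3 array. Their week medians were 0.42, -0.00 and 0.41. Cebpd, a transcription factor of the acute stress response, read 202.7, 133.0 and 396.8 in diabetic trained hearts, against 93.6, 99.2 and 173.9 in healthy sedentary hearts (difference 0.91). Bnip3, a mitophagy receptor, gave 0.63. Txnip, the thioredoxin-binding inhibitor of glucose uptake, gave 0.65 with all arrays and 0.93 without the week 3 array, with signals of 448.9, 292.4 and 674.2 against 250.3, 309.1 and 299.1, but a dim second Txnip probe set gave 0.51 and -0.00. In diabetic sedentary hearts the list's median was 0.65, and for trained against sedentary diabetic hearts it was -0.30. Against healthy trained hearts it was 0.22 in diabetic trained hearts. None of these list values is an independent test, since lists and genes were chosen with earlier results of these data known. Among 29 antioxidant genes the median was 0.04 and none passed; Cat, catalase, gave 0.74 (-0.24 at a second probe set) and Mt1, a metallothionein, 0.65.

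**Figure D4:**
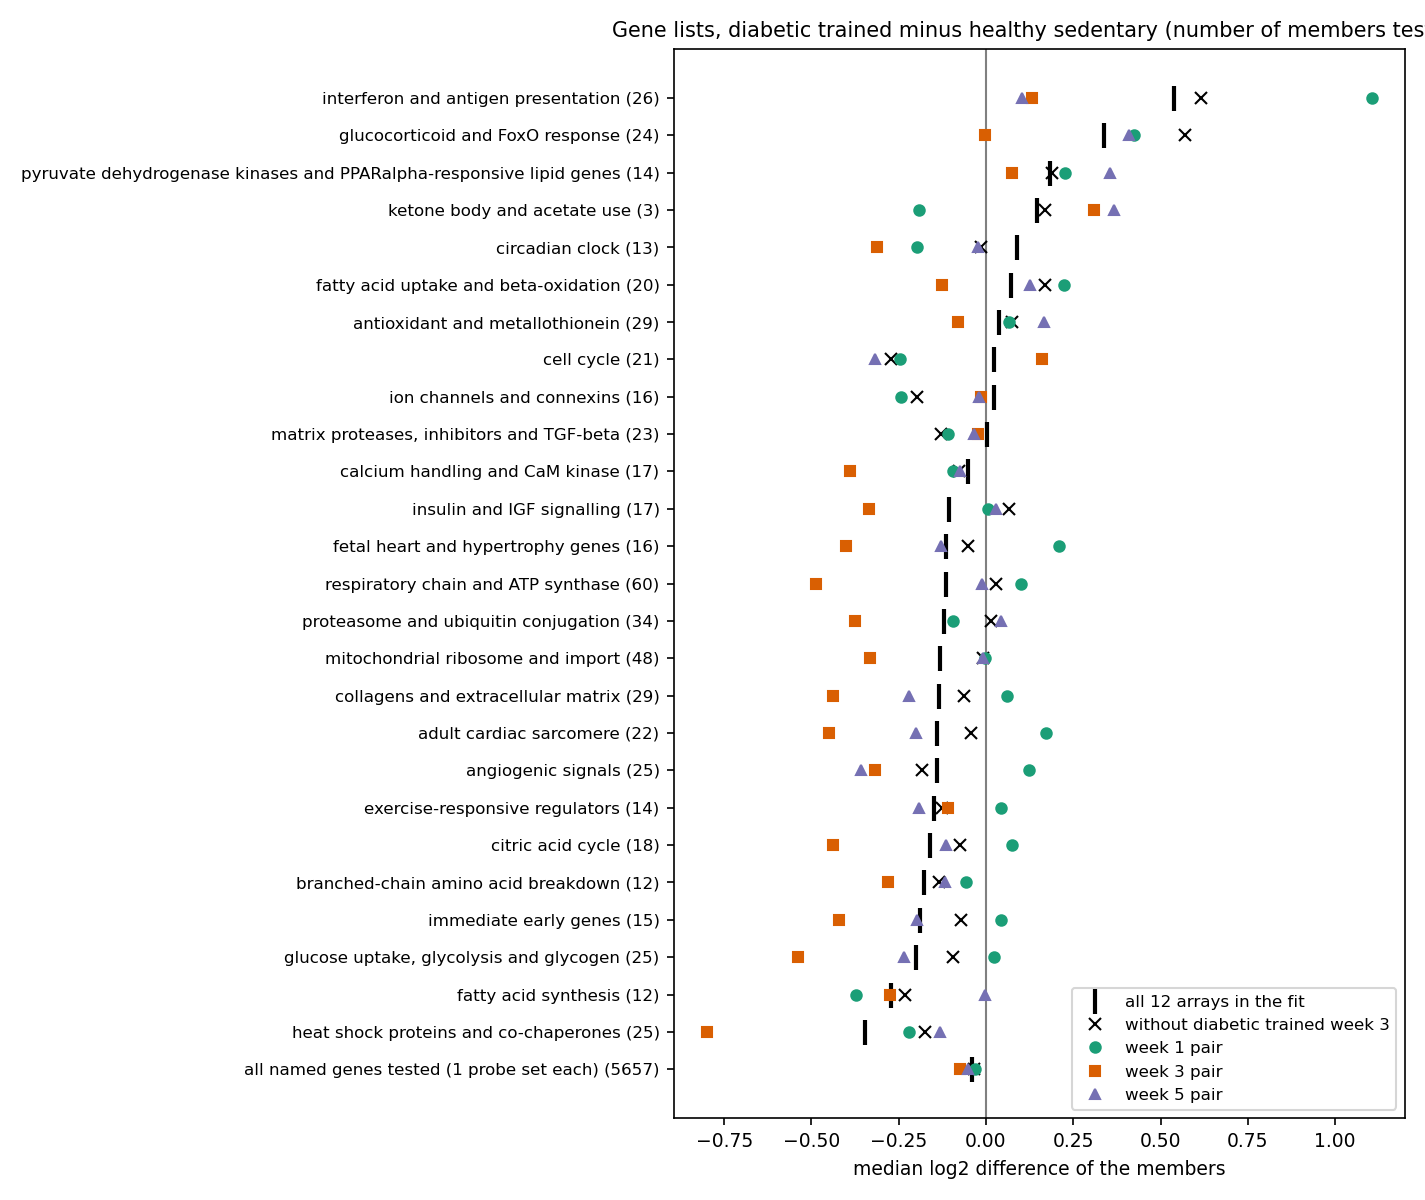
Median log2 difference, diabetic trained minus healthy sedentary, of the tested members of 26 gene lists (numbers in brackets) and of all named genes: ticks for the 12-array fit, crosses without the diabetic trained array of week 3, and colored points for the week 1, 3 and 5 pairs. With all arrays heat shock genes had the lowest median (-0.35; -0.17 without the week 3 array) and interferon genes the highest (0.54), and many lists' week 3 medians lay left of their week 1 and 5 medians.

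Heat shock proteins and co-chaperones, which fold new and damaged proteins, had the lowest median of the 26 lists with all arrays, but not without the week 3 array, where cell cycle, fatty acid synthesis, ion channel and angiogenic genes had lower ones. Of 25 tested, 24 were below 0, 8 were lower without overlap and none higher, against 4.53% and 2.51% of all named genes, although none passed. The median was -0.35, with week medians of -0.22, -0.80 and -0.13. Without the week 3 array it was -0.17 with 20 members below 0, and without the healthy sedentary array of week 3 it was -0.30. In diabetic sedentary hearts the list's median was -0.34, and in trained against sedentary diabetic hearts -0.03. Against healthy trained hearts it was -0.36 in diabetic trained hearts.

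Hspa1b and Hspa1a, the inducible HSP70 genes, had the widest gaps of the list. Hspa1b read 32.7, 10.9 and 16.5 in diabetic trained hearts, against 90.6, 395.3 and 60.8 in healthy sedentary hearts (difference -2.84, SE 0.605, adjusted p = 0.159 in limma). Hspa1a read 36.3, 20.9 and 15.1, against 91.3, 346.2 and 45.2 (difference -2.32). The healthy sedentary array of week 3 was the highest for both and without it the Hspa1b difference was -1.95. Diabetic sedentary hearts read 20.1, 13.9 and 24.0 for Hspa1b. Hsph1, the HSP110 exchange factor of HSP70, read 175.5, 57.7 and 89.5 in diabetic trained hearts, against 277.2, 310.2 and 209.0 (difference -1.44, -1.04 without the week 3 array). Fkbp4, an HSP90 co-chaperone of steroid receptors, gave -0.76 at a brighter probe set and -0.17 at a dimmer one, whose groups overlapped. Hspd1, the mitochondrial HSP60, gave -0.63, its signals being 646.8, 461.0 and 600.5 against 828.0, 1294.0 and 625.1.

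The 250 bases before the start of the most affected ones were read from RefSeq's promoter table (GRCm38.p6), and the core of the heat shock element, GAANNTTC, which reads the same on both strands, was searched there. It lay in 6 of the 17 list genes with an entry (Dnaja1, Fkbp4, Hspa1a, Hspa1b, Hspd1 and Hspe1), and in 7.73% of all 27025 genes of the table. A match is a description of letters and no site was tested. The sequences are given 5′ to 3′ on the minus strand, which is each gene's own, with the motif in capitals: Hspa1b lies at chr17:34959239-34959488, Hspa1a at chr17:34972157-34972406 and Hsph1 at chr5:149636337-149636586. The Hsph1 window has no match to GAANNTTC, but it holds ttctcgaa, the reverse order of the units.
Hspa1b: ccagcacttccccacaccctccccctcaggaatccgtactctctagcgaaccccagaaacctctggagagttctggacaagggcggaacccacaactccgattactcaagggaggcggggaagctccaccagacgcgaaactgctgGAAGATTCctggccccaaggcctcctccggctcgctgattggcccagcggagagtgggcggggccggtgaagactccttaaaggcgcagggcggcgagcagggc
Hspa1a: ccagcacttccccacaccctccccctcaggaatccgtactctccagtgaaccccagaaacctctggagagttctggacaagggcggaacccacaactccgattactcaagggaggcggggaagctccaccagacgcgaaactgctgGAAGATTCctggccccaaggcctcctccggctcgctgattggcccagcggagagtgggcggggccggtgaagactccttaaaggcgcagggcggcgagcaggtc
Hsph1: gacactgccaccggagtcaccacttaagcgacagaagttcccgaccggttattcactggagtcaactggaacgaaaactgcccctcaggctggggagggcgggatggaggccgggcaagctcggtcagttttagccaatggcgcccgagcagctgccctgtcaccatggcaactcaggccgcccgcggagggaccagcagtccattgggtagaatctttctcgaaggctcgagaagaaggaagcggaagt
The Hspa1b and Hspa1a stretches are identical at 247 of 250 bases. Their transcripts are near-identical copies too, so the values of either gene may hold signal from the other.

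**Figure D5:**
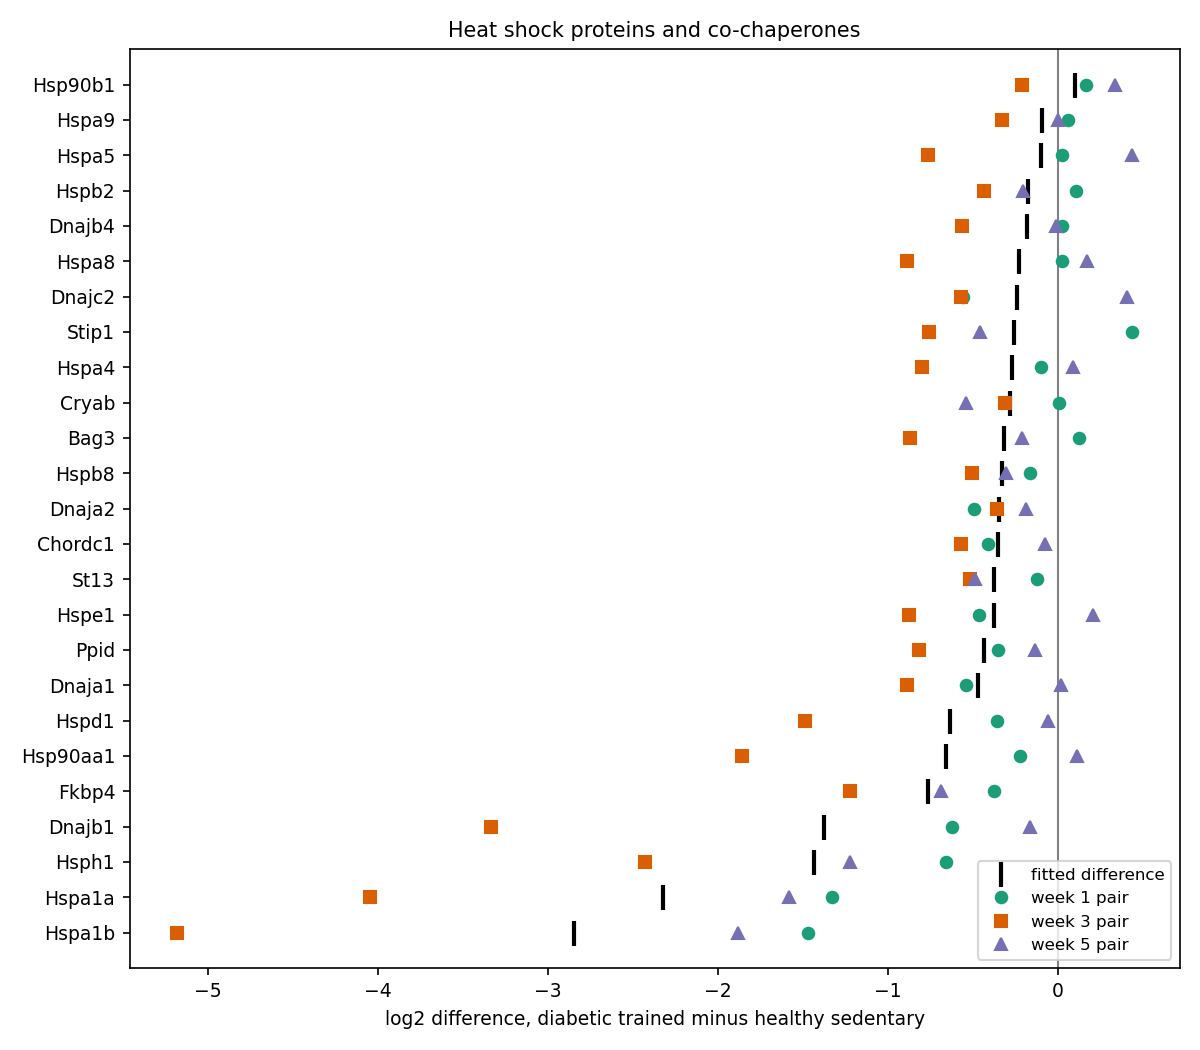
Log2 difference, diabetic trained minus healthy sedentary, of 25 heat shock proteins and co-chaperones: colored points are the week 1, 3 and 5 pairs and ticks the fitted difference. In 24 of 25 genes the fitted difference was below 0, and the week 3 pair gave the lowest values for Hspa1b, Hspa1a, Dnajb1 and Hsph1.

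Interferon and antigen presentation genes had the highest median, 0.54 (0.61 without the week 3 array), with 20 of 26 above 0, 3 higher without overlap, none lower and none passing. Week 1 gave most of it: the week medians were 1.10, 0.13 and 0.10. Igtp, an interferon-induced GTPase, read 131.6, 44.2 and 26.3 in diabetic trained hearts, against 16.9, 15.6 and 12.1 in healthy sedentary hearts (difference 1.86, adjusted p = 0.269 in limma). H2-K1, a class I antigen-presenting chain, read 1236.9 in week 1 of diabetic trained hearts, then 471.7 and 461.6, against 496.0, 403.7 and 405.0. Gbp3 and Irgm1, GTPases of the same response, gave 1.23 and 0.81, with -0.04 for Gbp3 in week 5. The list's median was 0.64 in diabetic sedentary hearts, against the same healthy sedentary arrays. Against healthy trained hearts it was 0.37 in diabetic trained hearts.

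Matrix and vessel genes lay on both sides of 0. Of 29 collagens and matrix proteins 11 were above 0, none passed, 1 was higher and 1 lower without overlap, and the median was -0.14. Col4a1, the partner chain of Col4a2, read 362.4, 257.5 and 217.8 in diabetic trained hearts, against 505.0, 502.9 and 302.2 (difference -0.64), and was lower in each pair. Col1a1, the fibrillar collagen I chain, read 220.9, 54.7 and 37.6 against 211.9, 188.9 and 126.7, low in weeks 3 and 5 and not in week 1 (difference -1.16, and -0.33 at a second probe set). Among 23 matrix proteases, inhibitors and TGF-beta genes the median was 0.00 (-0.13 without the week 3 array), 2 were higher (Ccn2 and Timp3) and 1 lower without overlap; the lower gene, Ltbp4, which binds latent TGF-beta, gave -1.10. Of 25 angiogenic genes 7 were above 0, 2 were lower without overlap and the median was -0.14. These 2 were Aqp1, a water channel of endothelium and red cells (194.6, 71.0 and 121.2 against 250.6, 231.7 and 353.7), and Tie1, an endothelial receptor (98.6, 42.3 and 61.4 against 110.4, 99.4 and 114.1). Vegfa, the main endothelial growth factor, gave -0.48 with overlapping groups.

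Contractile, calcium and electrical genes were described next. Among 22 adult sarcomere genes 4 were above 0, none passed and the median was -0.14 (-0.04 without the week 3 array); Ckm, the muscle creatine kinase, gave -0.48 and Myom2, an M-band protein, 0.49. The 16 fetal and hypertrophy genes held Myh7 as their only call, with 5 above 0 and a median of -0.11. Tnnt1, a slow skeletal troponin T, gave -0.92 (-0.18 at a second probe set), and Nppa, the atrial natriuretic peptide precursor, read 835.3, 828.5 and 808.4 in diabetic trained hearts against 740.1, 878.9 and 453.8. Of 17 calcium handling genes 1 passed (Camk2b), 3 were lower and none higher without overlap, and the median was -0.05. The other 2 were Cacna2d1, a calcium channel subunit (difference -0.95, signals of 19.7 to 39.7 against 41.6 to 69.7), and Hrc, a calcium-binding protein of the sarcoplasmic reticulum (-0.42). Of 16 ion channels and connexins 3 were lower and 1 higher without overlap, none passed and the median was 0.02 with all arrays and -0.20 without the week 3 array. The lower ones were Kcnk3, Abcc9, the sulfonylurea receptor of cardiac KATP channels (-0.68), and Kcnh2, the ERG potassium channel (-0.48).

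Of the remaining lists none had a member that passed. The medians were -0.11 for 17 insulin and IGF genes (0.07 without the week 3 array), 0.09 for 13 clock genes (-0.01 without the week 3 array), -0.19 for 15 immediate early genes, 0.02 for 21 cell cycle genes (-0.27 without the week 3 array) and -0.15 for 14 exercise-responsive regulators. Dbp, a clock output factor, read 15.0, 6.2 and 7.8 in diabetic trained hearts, against 27.2, 18.8 and 40.8 in healthy sedentary hearts, and Nr1d1, the clock repressor REV-ERB alpha, 31.3, 70.2 and 28.5 against 90.1, 98.3 and 49.2. Bhlhe40, another clock repressor, gave -0.68. Ccnd1, a D-type cyclin, gave -0.88 without overlap.

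Markers of the cell types that a heart sample can hold were summed per array. In bulk tissue fewer cells of a type and less RNA per cell cannot be told apart. The 9 adipocyte markers on the array summed to 295.5 to 421.4 on diabetic trained arrays, against 202.2 to 281.7 on healthy sedentary arrays, and their part in the fatty acid values was not tested. The highest sum was on the diabetic trained array of week 3, where Lep, the adipocyte hormone leptin, read 182.6. Of 6 adipocyte markers tested 4 were above 0, with a median difference of 0.45 with all arrays and 0.06 without the week 3 array, and 3 were above 0 without the week 3 pair. Adipoq, the hormone adiponectin, read 34.6, 33.8 and 57.7 in diabetic trained hearts against 23.8, 22.2 and 13.2, whereas Car3, a carbonic anhydrase abundant in fat, read 12.2, 3.6 and 22.2 against 31.4, 25.6 and 13.3. Retn and Cidec stayed under 13.8 on all 6 arrays. The 9 smooth muscle and pericyte markers summed to 664.1 to 685.5 on diabetic trained arrays, against 720.5 to 757.3. The other sums overlapped: cardiomyocyte 18196.8 to 26770.5 against 20462.1 to 26902.4, endothelial 960.1 to 1606.7 against 1242.5 to 1300.9, fibroblast 4151.9 to 5885.1 against 4796.7 to 5577.7, and macrophage and neutrophil 448.9 to 721.0 against 417.7 to 524.1. Lymphocyte markers summed to 153.7 to 377.0 against 257.5 to 322.5, and 4 of the 11 on the array (Cd3d, Cd3e, Cd79b and Ptprc) stayed under 13.8 on all 6 arrays. Another T cell marker, Cd4, read 34.7, 80.7 and 10.8 on diabetic trained arrays, against 32.6, 28.2 and 12.8 on healthy sedentary arrays. The part of lymphocytes in the interferon values was not tested. Erythroid and platelet, skeletal muscle, and mesothelium and nerve sums overlapped as well. The skeletal muscle sum held members that went opposite ways. Acta1 read 1080.3, 330.6 and 336.9 in diabetic trained hearts, against 813.1, 631.6 and 959.6 in healthy sedentary hearts. Pvalb read 101.3, 428.3 and 184.5 against 157.6, 136.3 and 123.7, and Atp2a1 14.1, 95.8 and 22.4 against 33.0, 18.1 and 13.3. Both were lower in week 1 and higher in weeks 3 and 5. Lung markers summed to 39.4 to 90.4 in diabetic trained hearts, against 50.6 to 251.6, the highest healthy sedentary array being that of week 1 with 205.4 for Scgb1a1, an airway secretory protein.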

How the data were processed

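RNA from the hearts of 5 mice was pooled for each of 12 Affymetrix MG_U74Av2 arrays (4 conditions at weeks 1, 3 and 5). The values deposited by the authors are linear signal intensities, for which the submitters' processing notes name MAS5; its version is not given in the sources used here. Arrays have no read depth, and the number of arrays limits the precision. Signals were floored at the 20th percentile of all values (4.1) and log2-transformed, and the test took the probe sets whose mean log2 signal reached the 40th percentile, which is 11.6 as a geometric mean. Of 12422 gene probe sets 10833 had 1 gene symbol, 396 several and 1193 none in the platform annotation; symbols were updated for 10817 through RefSeq, and only probe sets with 1 symbol were named.

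All 12 arrays were fitted in limma 3.58.1 (R 4.3.3) with condition and week as factors (6 residual degrees of freedom), an intensity trend and Benjamini-Hochberg adjustment over the 7453 tested probe sets (threshold 0.05); intervals are 95%. Folds are on the floored log2 scale. The fit was run on simulated arrays of independent noise with the same spread on every array. That setting does not cover an array that stands apart, like the diabetic trained array of week 3. The week was a block because mice of a week were killed at the same time, per the labels. Deviations from the condition means correlated at 0.080 to 0.640 between arrays of the same week (18 pairs) and at -0.452 to 0.246 between weeks (36 pairs). Deviations from a group's mean cancel, so negative values between weeks follow in part from positive ones within weeks. The diabetic trained array of week 1 correlated at 0.0976 with healthy sedentary week 1 and at 0.0977 with healthy sedentary week 3.

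The genes named are the 12 per direction with the same sign in all 3 pairs that passed, filled up by smallest p; the same without the diabetic trained array of week 3 (sign in weeks 1 and 5); those called in diabetic sedentary hearts, with the 10 largest per direction without that array; and the leading members of each gene list. A list gene is represented by 1 probe set. The members and the lists were chosen with earlier results of these data known.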

Additional observations from a re-analysis of the deposited data

Results flagged for a closer look

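For 7 of 169 named probe sets (4.14%) diabetic sedentary minus healthy sedentary hearts had one sign in each of the 3 weeks and diabetic trained minus healthy trained hearts the opposite sign in each. The values are the interaction on the log2 scale, the diabetes difference in trained minus that in sedentary hearts: Nkx2-5, a cardiac transcription factor, -1.298, Pdgfra, a growth factor receptor of fibroblasts, -1.213, Mylk, the myosin light chain kinase of smooth muscle, -0.65, Gsk3a, a glycogen synthase kinase, -0.647, Dusp1, a phosphatase of MAP kinases, 0.204, Mbp, a myelin protein, 0.68, and Nr4a1, an immediate early nuclear receptor, 1.514. No interaction passed limma's adjusted threshold (0 of 7453, 321 at an unadjusted p under 0.05). The same sign pattern was present at 220 of all 7453 tested probe sets (2.95%). A second Mbp probe set did not show it, its diabetic trained minus healthy trained differences being 0.07, 2.12 and -0.02 in weeks 1, 3 and 5.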

How the results depend on the processing

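The count of called probe sets for diabetic trained against healthy sedentary hearts (4) was 0 with no filter on dim probe sets, with no replicate block, with only the 6 arrays compared, without week 1 and without week 5, was 1 with median centring and with no intensity trend, and was 16 with array weights. Leaving out 1 array at a time gave 0 to 20. For diabetic sedentary against healthy sedentary hearts (4) it was 0 with no filter, with median centring, without week 1 and without week 5, 1 with no replicate block, 2 with no trend, 9 with the filter at the 60th percentile and with quantile normalization, 35 with only the 6 arrays compared, 61 with the scan day as block and 158 with array weights, and 0 to 60 leaving out 1 array. For diabetic trained against diabetic sedentary hearts (0) it was 0 to 1 leaving out 1 array. For diabetic trained against healthy trained hearts (2) it was 0 with no filter, with only the 6 arrays compared, without week 1 and without week 5, 1 with no replicate block, 4 with quantile normalization, 5 with the scan day as block and without the week 3 pair, 7 with array weights, and 2 to 14 leaving out 1 array. The causes were not tested, apart from the fewer arrays or the larger number of probe sets that some of these alternatives hold by construction.

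Among the genes given in the text, Smarcd1 changed sign without week 1 (0.21), and leaving out 1 array it ranged from -1.68 to 0.25. Lppos changed sign without week 5 (0.18) and ranged from -0.40 to 0.13. Cd4 changed sign with the scan day as block (-0.0648), and without the week 3 pair or all of week 3 (-0.0775 each), and ranged from -0.0648 to 0.8731 leaving out 1 array. Median centring set the median difference of all tested probe sets at -0.106 for diabetic trained against healthy sedentary hearts, beside -0.030 in the reported fit. Signals below 13.8, the highest of the absent-transcript controls, limit what can be said of genes with a whole group in that range (Camk2b, Fosl2, Src, Lcn2 and Map3k6) and of those with single arrays in it, among them Ift46, Dbp, Pacsin1, Wnk1, Irgm1, Cyp1b1, Col3a1, Smarcd1, Igtp and Hspa1b.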
